A study of Mus musculus with 36 samples.

Results

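The subject is the collagen genes of the mouse, taken as every gene entry whose symbol is Col, a number, a and a number, in mouse embryonic stem cells and embryoid bodies with and without the long noncoding RNA LncCPR. Of 37561 gene entries in each table, 43 carried such a symbol, each symbol once. They were sorted by structure into 11 fibrillar genes, 6 basement membrane genes (Col4), 6 Col6 genes and 20 genes of other types. The other types held 9 fibril-associated genes (FACIT), 4 transmembrane, 3 short-chain network and 2 multiplexin genes, with Col7a1 and Col28a1 as the remaining 2.

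The knockout groups were AB2.2-LncCPR-/- cells and the control groups were unmodified AB2.2 cells, a mouse embryonic stem cell line, at days 0, 3, 5, 8, 10 and 12 of differentiation. Each of the 12 groups had 3 libraries, 36 in all. All groups grew in serum with leukemia inhibitory factor (LIF) until day 0, when LIF was withdrawn and hanging drops were set up. RNA of the later days came from whole embryoid bodies, which are aggregates of many cell types. The deletion was made with Cas9 and guides on both sides of the gene, and single cells were sorted and expanded, without a statement of how many clones gave the 18 knockout libraries. LncCPR itself was not analysed here. The labels do not say that the 3 libraries of a group came from separate cultures, so p-values measure the spread between these libraries, which may be technical.

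Collagens are secreted proteins whose chains wind into a rod-like helix, and they form much of the extracellular matrix. Fibrillar collagens such as types I and III make the cable-like fibrils of connective tissue and are made above all by mesenchymal cells. Type IV collagen forms the sheet of basement membranes, and in the early embryo it is a major product of parietal endoderm. Type VI collagen forms beaded filaments near cell surfaces, and the FACIT collagens bind to fibrils and not to each other.

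The values are FPKM, counts of fragments divided by transcript length and by library total, which allows levels of different genes to be set side by side. A fold change is knockout minus control on the scale log2(FPKM + 1), which understates the change of low genes, and SE is its standard error. Genes averaging at least 1 FPKM in the 6 libraries of a day were tested with limma. A gene was called higher or lower at a Benjamini-Hochberg adjusted p of 0.05 or less over all genes tested at that day. Summed FPKM per library ran from 294740 to 403675, 11248 to 13183 genes lay above 1 FPKM, and the absolute depth is unknown. Whether the 6 tables were normalized together is not stated, so levels across days are a description. The stem cell label was checked on 5 markers of undifferentiated cells. They summed to 1378 to 1499 FPKM in the knockout libraries and 1331 to 1379 FPKM in the control libraries at day 0, and to 59.7 to 80.0 FPKM in knockout and 54.7 to 116 FPKM in control at day 12; Esrrb, one of the 5, was listed at 0 in all 6 libraries of day 0.

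Upstream sequence is shown for 3 genes: Col3a1 and Col6a3, which had some of the largest falls in the knockout, and Col5a1, a fibrillar gene with a smaller one. Each is the 250 bases before the RefSeq start of the gene in GRCm38.p6, written 5′ to 3′ on the strand of the gene. Capitals mark matches on either strand to CCAAT, the letters of a CCAAT box, to TATAAA, those of a TATA box, or to GGGCGG, those of a GC box; the 3 motifs share no overlapping match in these windows. The Col3a1 window is chr1:45311288-45311537 on the plus strand, the Col6a3 window chr1:90843972-90844221 on the minus strand, and the Col5a1 window chr2:27886175-27886424 on the plus strand.
Col3a1: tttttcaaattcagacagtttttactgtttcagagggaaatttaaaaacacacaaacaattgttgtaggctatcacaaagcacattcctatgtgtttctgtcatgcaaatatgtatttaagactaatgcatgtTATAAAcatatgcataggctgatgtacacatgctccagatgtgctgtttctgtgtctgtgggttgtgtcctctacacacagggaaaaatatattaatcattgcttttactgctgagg
Col6a3: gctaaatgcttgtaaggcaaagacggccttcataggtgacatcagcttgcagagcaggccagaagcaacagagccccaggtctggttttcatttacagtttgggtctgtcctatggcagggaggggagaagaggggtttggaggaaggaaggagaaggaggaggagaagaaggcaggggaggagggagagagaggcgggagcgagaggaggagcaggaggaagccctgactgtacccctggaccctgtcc
Col5a1: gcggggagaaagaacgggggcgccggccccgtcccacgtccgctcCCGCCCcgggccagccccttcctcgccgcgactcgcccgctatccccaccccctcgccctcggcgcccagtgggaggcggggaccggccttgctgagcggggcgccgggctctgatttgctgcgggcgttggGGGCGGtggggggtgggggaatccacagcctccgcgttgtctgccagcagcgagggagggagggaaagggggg
The Col3a1 window is 35.2% G and C with a single TATAAA, the Col6a3 window is 57.2% G and C with none of the 3 motifs, and the Col5a1 window is 76.4% G and C with 2 GC box matches. Windows of this length were found for 35 of the 43 collagen genes, 38 in all. CCAAT was found in 13 of them, TATAAA in 5 and GGGCGG in 22, against 33.85%, 12.37% and 32.74% of all 32851 windows of this length. A match is a run of letters and not a shown binding site.

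Most collagen genes had low values at day 0 and their highest values late in differentiation. Of the 43, 31 reached a mean of 1 FPKM in 1 group or more and 16 reached 10 FPKM. The other 12 stayed below 1 FPKM in every group, from Col28a1 with a highest group mean of 0.0608 FPKM to Col24a1 with 0.834 FPKM. Among them were Col4a3, Col4a4, Col6a4, Col6a5, Col6a6, Col10a1, Col17a1, Col19a1, Col20a1 and Col7a1. Of the 16 most abundant, 15 had their highest mean at day 12 in the knockout and 14 had it at day 12 in control, Col2a1 being the exception in knockout and Col2a1 and Col18a1 in control. Summed over all collagen genes the level was 68.9 ± 3.59 FPKM in knockout and 72.9 ± 5.24 FPKM in control at day 0, 397 ± 16.7 FPKM in knockout and 502 ± 48.4 FPKM in control at day 8, and 736 ± 67.0 FPKM in knockout and 1065 ± 56.2 FPKM in control at day 12 (mean ± SD, n = 3).

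At day 0 the sum was mostly 1 gene. Col18a1, a basement membrane collagen that carries the fragment endostatin, stood at 41.0 ± 2.95 FPKM in knockout and 43.2 ± 5.39 FPKM in control. Next came Col4a1 at 7.45 ± 0.412 FPKM in knockout and 7.24 ± 0.405 FPKM in control, then Col4a2, Col13a1 and Col9a2, with group means from 3.47 to 4.34 FPKM, and Col5a1 below them. The type I chain Col1a1 was at 0.203 ± 0.116 FPKM in knockout and 0.216 ± 0.0511 FPKM in control at that day, and at 34.2 ± 3.94 FPKM in knockout and 74.6 ± 9.16 FPKM in control at day 12.

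**Figure D1:**
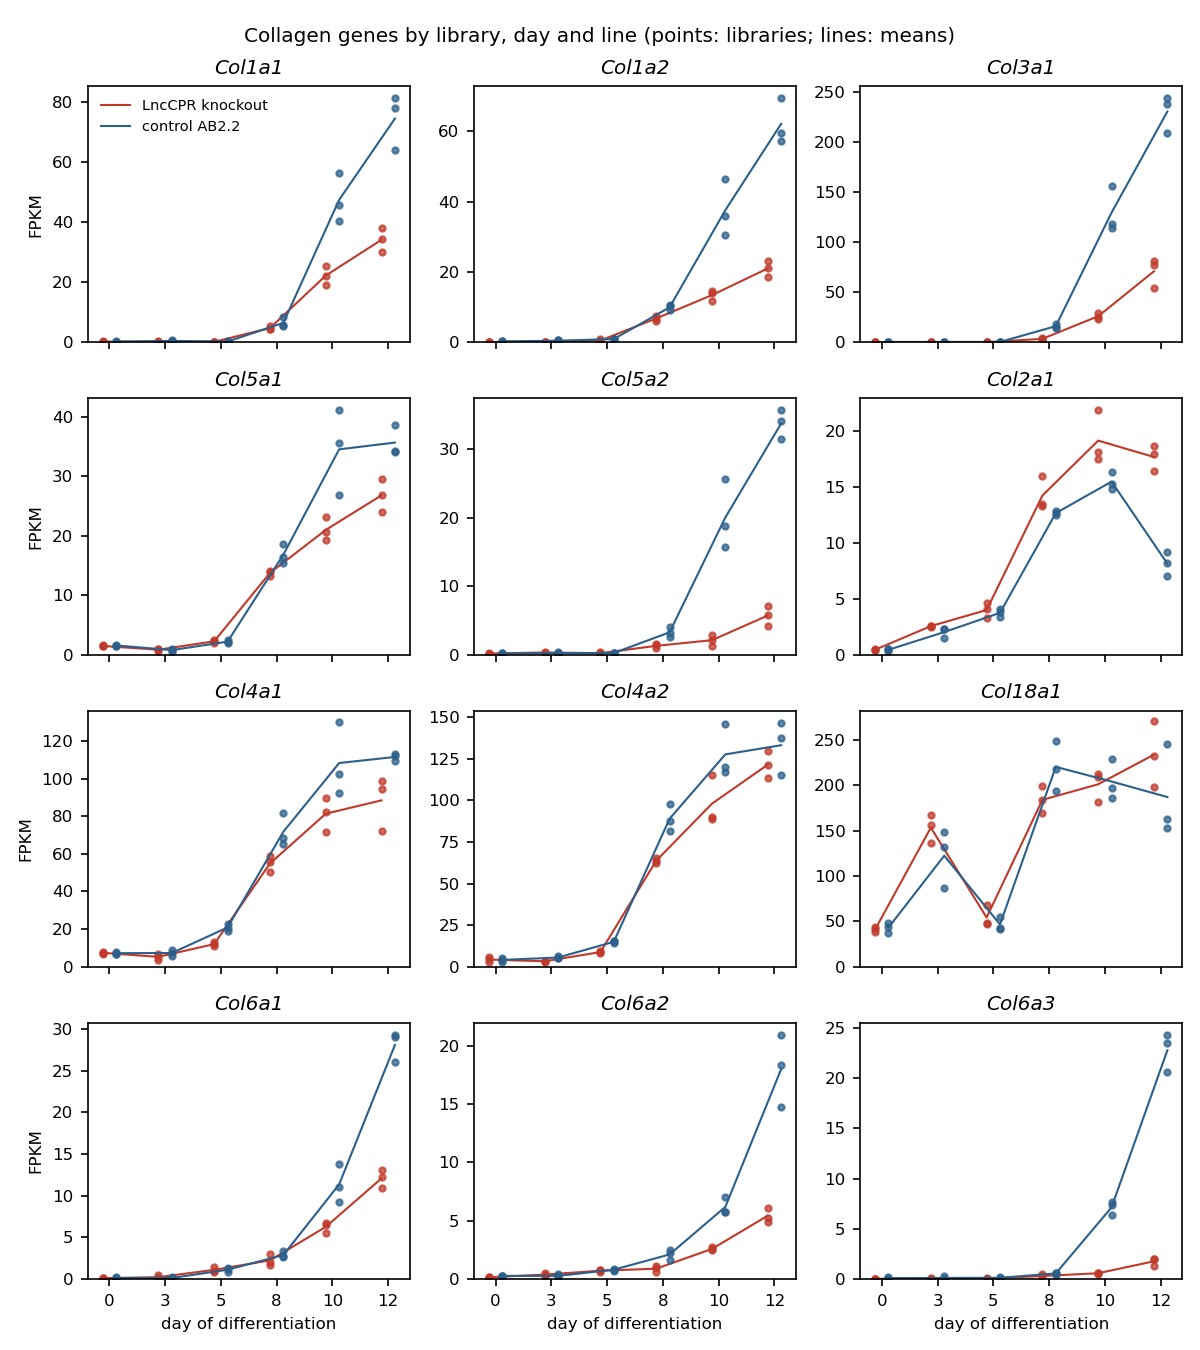
FPKM of 12 collagen genes (vertical axes, linear, each panel with its own scale) by day of differentiation (horizontal axes), with 1 point per library and lines through the means of 3 libraries, knockout in red and control in blue. Col3a1, Col5a2 and Col6a3 part most widely from day 10, Col2a1 is higher in the knockout at day 12, and the points of Col18a1 overlap at each of the 6 days.

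Of 32 calls over the 6 days, 31 were lower and 1 was higher in the knockout. At day 0, 7 members were tested and 0 were called in limma, where 6.49% of all tested genes were called higher and 8.03% lower; 0 lay below an unadjusted p of 0.05. At day 3, 0 of 6 were called, with 1 higher and 1 lower at an unadjusted p below 0.05, and the background was 1.09% higher and 0.668% lower. Control replicate 1 of that day had the lowest summed FPKM and the fewest genes above 1 FPKM of the 36 libraries. A single fit over all 36 libraries called Col9a2 higher and Col4a2 lower at day 3, and rescaled libraries gave Col4a2 alone. Col4a2 lies on chromosome 8, whose median log2 fold change stood at -0.24 against the other chromosomes at day 3. Neither of these settings took that shift off. At day 5, 4 of 11 were called lower and 0 higher, against 3.32% of all genes lower and 7.07% higher. At day 8, 4 of 24 were called lower and 0 higher, against 2.00% and 1.28%. At day 10, 13 of 28 were called lower and 0 higher, against 5.12% and 15.0%. At day 12, 10 of 28 were called lower and 1 higher, against 3.48% and 3.22%. In each of the 32 calls the knockout and control libraries did not overlap. The same share was not computed over all genes called, so this count is not a trait of the collagen genes. Members below an unadjusted p of 0.05 numbered 1 higher and 4 lower on day 5. They were 2 and 10 on day 8, 0 and 16 on day 10, and 2 and 15 on day 12. The share of all genes below that p is not given here. Leaving out any 1 of the 6 libraries of day 8 left 2 of its 4 calls, those of Col3a1 and Col9a1.

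At day 5 the median log2 fold change was -0.13 for the members tested and 0.13 for all genes tested. It was -0.32 for the members and 0.09 for all genes at day 8, -0.42 for the members and 0.17 for all genes at day 10, and -0.36 for the members and 0.05 for all genes at day 12. Bringing the libraries of a day to a common median ratio lowered the all-gene median. The drop at days 3, 5, 8, 10 and 12 was 0.14, 0.12, 0.10, 0.16 and 0.05 in that sequence. Collagen fold changes move down with it, so their distance from the typical gene is about the same on both scales. Read from 0, a negative deposited fold change understates that distance by about the drop. On the rescaled values all 32 calls remained, and the members called lower came to 10 at day 8, 18 at day 10 and 12 at day 12. Lower calls over all genes rose too, from 254 to 480 of 12695 at day 8. At day 10 they rose from 663 to 1478 of 12938, and at day 12 from 456 to 641 of 13089. Of all genes called, the share called higher was 39.6% on rescaled and 61.9% on deposited values at day 3, where rescaling gave 212 higher and 324 lower calls and the deposited values 130 and 80. It was 42.8% rescaled and 68.1% deposited on day 5, 45.5% and 74.6% on day 10, and 34.9% and 48.1% on day 12. The shift was smaller on day 8, at 34.3% rescaled and 39.1% deposited, and of the other sign on day 0, at 47.8% and 44.7%. In these bulk samples fewer cells of a type and less RNA per cell cannot be told apart.

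**Figure D2:**
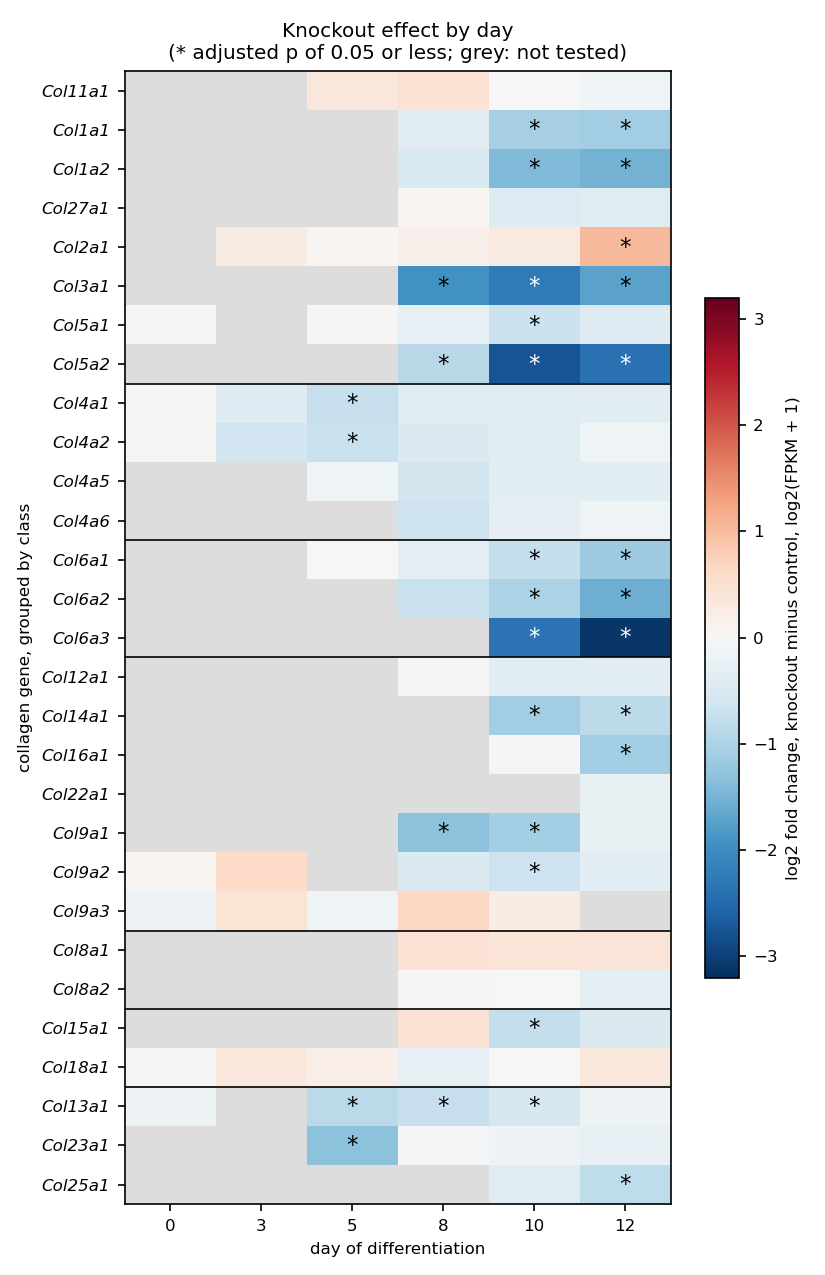
Log2 fold change, knockout minus control on log2(FPKM + 1), for the 29 members tested at 1 day or more, with genes in rows grouped by class, days in columns, blue for lower and red for higher in the knockout; a star marks an adjusted p of 0.05 or less and grey a day at which the gene was not tested. The strongest blue is in Col6a3 and Col5a2, and the single red star is Col2a1 at day 12.

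At days 10 and 12 the fibrillar genes held most of the difference in summed level. Their sum was 127 ± 18.2 FPKM in knockout and 308 ± 53.5 FPKM in control at day 10, and 200 ± 21.8 FPKM in knockout and 473 ± 15.6 FPKM in control at day 12. They made up 27.2% ± 1.58 of the summed collagen FPKM in knockout and 44.4% ± 1.93 in control at day 12, where at day 8 they made up 14.9% ± 0.578 in knockout and 15.4% ± 0.561 in control. At day 8 the sums were 59.1 ± 2.14 FPKM in knockout and 77.3 ± 4.90 FPKM in control for fibrillar genes, 125 ± 6.79 FPKM in knockout and 171 ± 16.7 FPKM in control for Col4, and 209 ± 14.9 FPKM in knockout and 248 ± 28.0 FPKM in control for the other types. At day 5 the fold changes of 3 of 3 fibrillar genes tested were positive, and 0 were called. Of the 8 fibrillar genes tested later, 2 were called lower at day 8, 5 at day 10 and 4 at day 12, with 1 higher at day 12. Col5a3, Col11a2 and Col24a1 were tested at no day.

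Col3a1 encodes the chain of type III collagen, the fibril of vessel walls and other distensible tissue, and lies at chr1:45311538-45349706 on the plus strand (GRCm38). At day 10 it was at 29.1, 23.6 and 25.2 FPKM in the knockout libraries and 114, 156 and 118 FPKM in the control libraries. The highest knockout library was thus well below the lowest control library. It fell by 2.26 on the log2 scale (SE 0.15, adjusted p = 2.4e-06), and was already lower at day 8, at 3.45 ± 0.635 FPKM in knockout and 16.1 ± 1.96 FPKM in control (log2 fold change -1.95, SE 0.17, adjusted p = 0.00017). At day 12 it was at 70.8 ± 14.5 FPKM in knockout and 230 ± 18.4 FPKM in control (log2 fold change -1.71, SE 0.15, adjusted p = 0.00059), and so was the most abundant fibrillar gene of either line. Before day 8 it lay under the test's minimum.

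Col5a2 encodes a chain of type V collagen, which seeds type I fibrils, and lies next to Col3a1, with 24614 bases between the 2 genes. At day 10 it was at 2.89, 1.32 and 2.09 FPKM in the knockout libraries and 18.8, 25.7 and 15.7 FPKM in the control libraries. No knockout library came near the control range. The log2 fold change was -2.77 (SE 0.21, adjusted p = 4.2e-06), and at day 12, with 5.71 ± 1.5 FPKM in knockout and 33.8 ± 2.10 FPKM in control, it was -2.40 (SE 0.16, adjusted p = 0.00022). At day 8 the log2 fold change of Col5a2 was -0.89 (SE 0.19, adjusted p = 0.036). That call rested on all 6 libraries, since leaving out any 1 of them gave adjusted p values from 0.0505 to 0.188. Col5a1, the other type V chain tested, was also lower, at 21 ± 1.94 FPKM in knockout and 34.5 ± 7.15 FPKM in control at day 10 (a log2 fold change of -0.68, SE 0.16, adjusted p = 0.011). At day 12 Col5a1 had 26.8 ± 2.76 FPKM in knockout and 35.7 ± 2.62 FPKM in control (log2 fold change -0.40, adjusted p = 0.062), which passed the threshold on rescaled values (adjusted p = 0.017).

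Type I collagen, the main fibril of bone, skin and tendon, was lower in both of its chains. At day 10 Col1a2 was at 14.6, 11.7 and 13.9 FPKM in the knockout libraries and 36, 46.3 and 30.5 FPKM in the control libraries, without overlap (log2 fold change -1.41, SE 0.16, adjusted p = 0.0001). At the same day Col1a1 was at 25.5, 19.2 and 22.1 FPKM in the knockout libraries and 45.7, 56.5 and 40.3 FPKM in the control libraries, also without overlap (log2 fold change -1.06, SE 0.16, adjusted p = 0.0007). By day 12 the log2 fold change was -1.52 for Col1a2 (SE 0.12, adjusted p = 0.00035) and -1.10 for Col1a1 (SE 0.13, adjusted p = 0.0018). At day 8 neither passed in the fit of that day, at 6.79 ± 0.707 FPKM in knockout and 9.94 ± 0.779 FPKM in control for Col1a2, where rescaled values gave an adjusted p of 0.036 and the fit over all 36 libraries one of 0.024, and at 4.74 ± 0.527 FPKM in knockout and 6.46 ± 1.63 FPKM in control for Col1a1.

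Col2a1, the chain of cartilage and notochord collagen, was higher in the knockout at day 12. It was at 18.6, 16.4 and 18.0 FPKM in the knockout libraries and 8.19, 7.02 and 9.20 FPKM in the control libraries of that day (log2 fold change 1.04, SE 0.13, adjusted p = 0.0024). Every knockout library was above every control library. At day 10 it had 19.2 ± 2.37 FPKM in knockout and 15.5 ± 0.756 FPKM in control, which did not pass (adjusted p = 0.15). Col2a1 is set apart here because it was the single member called higher, a choice made after its values were seen. Of 7 markers of cartilage and notochord, 4 were tested at day 12 and 0 were called, with 16.2 to 18.3 FPKM summed in knockout and 16.7 to 19.1 FPKM in control. At day 10 Sox9 and Hapln1 of that list were lower and T, a notochord and mesoderm marker, was higher.

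Col11a1, which joins type II and type V collagen in thin fibrils, gave no call. It was at 20.4 ± 6.15 FPKM in knockout and 20.2 ± 4.19 FPKM in control at day 10 and at 22.0 ± 1.87 FPKM in knockout and 24.4 ± 3.32 FPKM in control at day 12 (a log2 fold change of -0.14, SE 0.12, adjusted p = 0.53). Its ratio to Col5a1 was 0.931 ± 0.142 in knockout and 0.540 ± 0.115 in control at day 8, and 0.822 ± 0.0281 in knockout and 0.688 ± 0.115 in control at day 12. Col27a1 stayed at 1.24 ± 0.207 FPKM in knockout and 1.95 ± 0.254 FPKM in control at day 12 (adjusted p = 0.21).

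**Figure D3:**
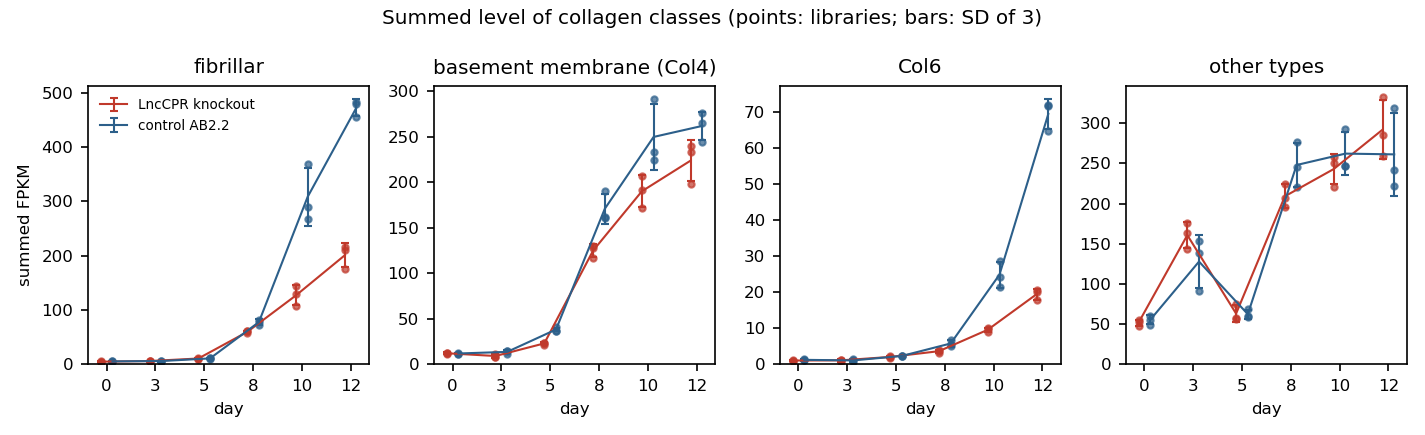
Summed FPKM (vertical axes, linear) of 4 groups of collagen genes by day (horizontal axes), with points for libraries, lines through means and bars of 1 SD over 3 libraries, knockout in red and control in blue. The fibrillar and Col6 sums part at days 10 and 12, reaching 200 FPKM in knockout and 473 FPKM in control, and 19.4 FPKM in knockout and 69.4 FPKM in control; the other types reach 292 FPKM in knockout and 261 FPKM in control with overlapping points.

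At days 10 and 12 Col6 had, of the 4 groups, the lowest summed level in the knockout relative to control. The Col6 sum was 9.53 ± 0.519 FPKM in knockout and 24.8 ± 3.63 FPKM in control at day 10, and 19.4 ± 1.48 FPKM in knockout and 69.4 ± 4.13 FPKM in control at day 12. The 3 genes tested, Col6a1, Col6a2 and Col6a3, encode the chains of the common type VI molecule, and 3 of 3 were called lower at both days. At day 12 Col6a3, at chr1:90765923-90843971 on the minus strand (GRCm38), was at 1.98, 1.99 and 1.34 FPKM in the knockout libraries and 23.5, 24.3 and 20.6 FPKM in the control libraries (log2 fold change -3.11, SE 0.14, adjusted p = 1.2e-05). Its values at day 10 were 0.588, 0.617 and 0.542 FPKM in the knockout libraries and 7.32, 7.71 and 6.39 FPKM in the control libraries (log2 fold change -2.36, SE 0.16, adjusted p = 2.5e-06). As deposited, the 3 knockout libraries of day 12 still lay below the 3 control libraries of day 10.

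Col6a2 at day 12 was at 4.93, 6.11 and 5.28 FPKM in the knockout libraries and 18.3, 20.9 and 14.8 FPKM in the control libraries (log2 fold change -1.55, SE 0.15, adjusted p = 0.00075). Col6a1 at day 12 was at 13.1, 12.3 and 10.9 FPKM in the knockout libraries and 29.3, 26.0 and 29.0 FPKM in the control libraries (log2 fold change -1.15, SE 0.11, adjusted p = 0.00076). In both genes the groups were clear of each other. At day 10 the log2 fold change was -1.0 for Col6a2 (SE 0.15, adjusted p = 0.00094) and -0.75 for Col6a1 (SE 0.16, adjusted p = 0.0073).

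Ratios between chains of 1 collagen type lay apart between the lines in some types and overlapped in others, and they were not tested. The ratio of Col6a3 to Col6a1 was 0.145 ± 0.0201 in knockout and 0.814 ± 0.113 in control at day 12, and 0.0939 ± 0.0152 in knockout and 0.638 ± 0.0702 in control at day 10. The ratio of Col5a2 to Col5a1 was 0.211 ± 0.0349 in knockout and 0.954 ± 0.123 in control at day 12, and 0.0985 ± 0.0286 in knockout and 0.579 ± 0.0488 in control at day 10. For Col1a2 over Col1a1 the ratio was 0.605 ± 0.0304 in knockout and 0.788 ± 0.0318 in control at day 10, while at day 12 the 2 groups overlapped, at 0.623 ± 0.129 in knockout and 0.850 ± 0.203 in control. Col4a2 over Col4a1 overlapped between the lines at days 8, 10 and 12 and was 1.39 ± 0.169 in knockout and 1.19 ± 0.124 in control at day 12. The type III to type I ratio, Col3a1 over Col1a1, was 1.17 ± 0.0497 in knockout and 2.73 ± 0.217 in control at day 10.

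**Figure D4:**
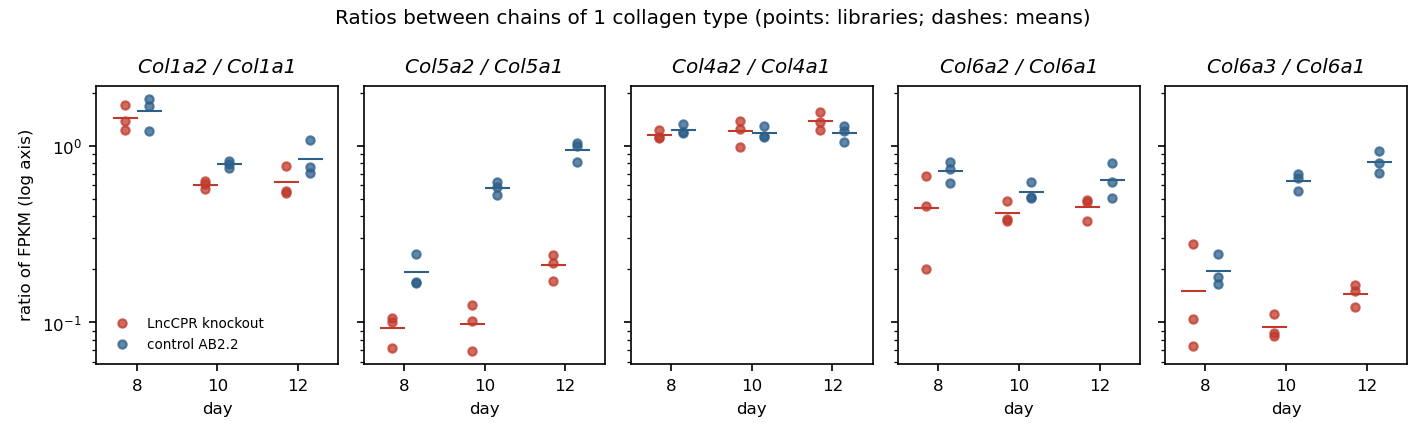
Ratio of FPKM of 2 chains (vertical axis, log scale) in each library at days 8, 10 and 12 (horizontal axes), with dashes for the mean of 3 libraries, knockout in red to the left of control in blue. Col5a2 over Col5a1 and Col6a3 over Col6a1 are lower in each knockout library at days 10 and 12, with means of 0.211 in knockout against 0.954 in control and 0.145 in knockout against 0.814 in control at day 12, and Col4a2 over Col4a1 overlaps.

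Col3a1, Col5a2, Col6a3 and Col9a1 lie on chromosome 1 in GRCm38, and the genes of that chromosome as a whole lay lower in the knockout from day 5 on. The chromosome 1 median was below the median of the other chromosomes by 0.27 to 0.30 on the log2 scale at days 5, 8, 10 and 12. With each chromosome's median taken off, the log2 fold change was -1.97 for Col3a1, -2.48 for Col5a2 and -2.07 for Col6a3 at day 10, and 31 of the 32 calls remained. The call that ended was Col5a2 at day 8 (adjusted p = 0.13, where the other settings tried gave 0.0007 to 0.19). Col1a2 on chromosome 6 and Col6a1 and Col6a2 on chromosome 10 lay on chromosomes with shifts from -0.01 to 0.02 at days 10 and 12. Earlier, chromosome 6 and chromosome 8, which holds Col4a1 and Col4a2, had shifts from -0.26 to -0.24 at days 0 and 3. At day 5 these were 0.01 for chromosome 6 and -0.01 for chromosome 8.

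Among the basement membrane genes, 2 of those tested were lower at day 5. Col4a1 and Col4a2, the pair of chains found in nearly all basement membranes, lie head to head on chromosome 8. At day 5 Col4a1 was at 13.1, 10.9 and 12.2 FPKM in the knockout libraries and 20.6, 19.3 and 22.9 FPKM in the control libraries (log2 fold change -0.75, SE 0.12, adjusted p = 0.0024). Col4a2 was at 8.42, 8.89 and 9.25 FPKM in the knockout libraries and 14.1, 15.7 and 15.3 FPKM in the control libraries (log2 fold change -0.70, SE 0.11, adjusted p = 0.0021). Both chains stood apart between the lines at that day. The Col4 sum was 22.7 ± 1.15 FPKM in knockout and 38.0 ± 2.15 FPKM in control at day 5, and 224 ± 22.5 FPKM in knockout and 262 ± 15.8 FPKM in control at day 12.

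At days 8, 10 and 12, 0 of 4 tested Col4 genes passed in the fits of single days, with 4 of 4 fold changes negative at each of these days. Both the scaling and the form of the fit changed these calls. On rescaled values Col4a1, Col4a2 and Col4a6 passed at day 8, all 4 at day 10 and Col4a1 at day 12. Rescaling also raised the lower calls of all genes at these days, at day 10 from 663 to 1478 of 12938. The fit over all 36 libraries, on deposited values, called Col4a2, Col4a5 and Col4a6 lower at day 8 (adjusted p = 0.044, 0.0087 and 0.00032). Col4a1 had 81.3 ± 9.02 FPKM in knockout and 108 ± 19.3 FPKM in control at day 10 (a log2 fold change of -0.40, SE 0.16, adjusted p = 0.084, and 0.007 on rescaled values). Col4a5, an X-linked chain of kidney and muscle basement membranes, had 7.55 ± 1.15 FPKM in knockout and 9.74 ± 1.60 FPKM in control at that day (adjusted p = 0.16, and 0.02 on rescaled values). Col4a6 was highest at day 12, at 4.42 ± 0.425 FPKM in knockout and 4.96 ± 1.03 FPKM in control.

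Some markers of primitive and parietal endoderm were also lower at day 5, the day of the Col4 calls. Of all tested genes, 3.32% were lower at day 5 and 3.48% at day 12. Of 9 such genes in the tables, 7 were tested at day 5 and 4 were lower, namely Pdgfra, Sox17, Plat and Gata6, with sums of 133 to 148 FPKM in the knockout libraries and 180 to 202 FPKM in the control libraries. By day 12, 3 were lower, and the sums were 645 to 790 FPKM in knockout and 803 to 811 FPKM in control. Of this list, Lamb1 (log2 fold change -0.20, adjusted p = 0.28 in limma) and Sparc (-0.34, adjusted p = 0.091) were not called at day 5. At day 0 Lamb1 had been higher and Sparc lower. The part of these markers in the Col4 values was not tested.

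Of the other types, 2 of 10 tested were lower at day 8, 5 of 13 at day 10 and 3 of 13 at day 12, with 0 higher. Col18a1, the most abundant of them, was not called. It was at 201 ± 17.0 FPKM in knockout and 204 ± 22.3 FPKM in control at day 10 (a log2 fold change of -0.02, SE 0.15, adjusted p = 0.94), and at 234 ± 36.4 FPKM in knockout and 187 ± 50.9 FPKM in control at day 12 (a log2 fold change of 0.34, SE 0.19, adjusted p = 0.30). Its libraries overlapped at 6 of 6 days, and at day 8 rescaled values called it lower (log2 fold change -0.36, adjusted p = 0.044). Col15a1, the other multiplexin, was at 1.18, 2.08 and 1.68 FPKM in the knockout libraries and 3.51, 2.56 and 4.35 FPKM in the control libraries at day 10 (a log2 fold change of -0.75, SE 0.20, adjusted p = 0.019). That call ended without knockout replicate 1 (adjusted p = 0.069) and without control replicate 3 (adjusted p = 0.086).

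Among the fibril-associated genes, 1 of 4 tested was lower at day 8, 3 of 6 at day 10 and 2 of 6 at day 12. Col9a1, a chain of the type IX collagen that coats cartilage fibrils, was at 5.26, 4.78 and 4.69 FPKM in the knockout libraries and 12.3, 12.1 and 10.6 FPKM in the control libraries at day 10 (a log2 fold change of -1.10, SE 0.14, adjusted p = 0.00024). Its groups were apart at days 8 and 10 and overlapped at day 12, at 10.2 ± 2.13 FPKM in knockout and 12.4 ± 4.02 FPKM in control (adjusted p = 0.59). Its partner Col9a2 was at 3.72, 4.33 and 3.56 FPKM in the knockout libraries and 7, 7.10 and 6.05 FPKM in the control libraries at day 10 (a log2 fold change of -0.66, SE 0.15, adjusted p = 0.0094). Col9a3, the third chain, stayed between 0.378 and 2.26 FPKM in every library and was not called.

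Col14a1, which binds type I fibrils, was at 0.277, 0.694 and 0.586 FPKM in the knockout libraries and 2.48, 2.39 and 1.90 FPKM in the control libraries at day 10 (a log2 fold change of -1.11, SE 0.19, adjusted p = 0.0021). Col14a1 was also lower by day 12, with a log2 fold change of -0.83 (SE 0.17, adjusted p = 0.024), and this ended without knockout replicate 2 or 3 or control replicate 1 or 3 (adjusted p from 0.061 to 0.080). Col16a1 was lower at day 12, with 1.75, 0.957 and 0.722 FPKM in the knockout libraries and 5.27, 2.34 and 3.49 FPKM in the control libraries (log2 fold change -1.11, SE 0.26, adjusted p = 0.040). It too was lost without any of those 4 libraries, at adjusted p from 0.079 to 0.12. Col12a1, found on fibrils of tissues under tension, was at 10.6 ± 0.884 FPKM in knockout and 13.7 ± 1.15 FPKM in control at day 12 (adjusted p = 0.13), and Col22a1 at 1.03 ± 0.375 FPKM in knockout and 1.41 ± 0.452 FPKM in control (adjusted p = 0.55).

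Of the transmembrane genes, 2 were lower at day 5, the day at which Col4 also differed. Col23a1 was at 1.34, 1.31 and 1.39 FPKM in the knockout libraries and 4.44, 4.75 and 5.33 FPKM in the control libraries at day 5 (a log2 fold change of -1.31, SE 0.12, adjusted p = 9e-05). At day 8 its libraries overlapped, with 2.57 ± 0.348 FPKM in knockout and 2.73 ± 0.579 FPKM in control (adjusted p = 0.91). Col13a1, known from the neuromuscular junction, was at 1.20, 1.18 and 1.60 FPKM in the knockout libraries and 3.33, 2.48 and 3.98 FPKM in the control libraries at day 5 (a log2 fold change of -0.86, SE 0.16, adjusted p = 0.007). Its calls at day 8 (a log2 fold change of -0.75, SE 0.17, adjusted p = 0.047) and day 10 (a log2 fold change of -0.53, SE 0.18, adjusted p = 0.049) sat at the threshold. Leaving out any 1 library ended the first, with adjusted p from 0.051 to 0.17, and leaving out any but control replicate 3 ended the second, with adjusted p from 0.092 to 0.13.

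Col25a1, whose shed form was found in amyloid plaques of the human brain, was at 2.43, 2.57 and 1.91 FPKM in the knockout libraries and 5.37, 4.52 and 4.45 FPKM in the control libraries at day 12 (a log2 fold change of -0.81, SE 0.16, adjusted p = 0.018). The call ended without knockout replicate 1 or 3 or control replicate 1, at adjusted p from 0.054 to 0.066. The short-chain network genes tested, Col8a1 and Col8a2, are found beneath endothelium and in the eye and gave no call. Col10a1 of this class was tested at no day. Col8a1 was at 8.66 ± 1.16 FPKM in knockout and 6.34 ± 1.54 FPKM in control at day 12 (a log2 fold change of 0.41, adjusted p = 0.18), and Col8a2 at 3.68 ± 0.150 FPKM in knockout and 4.80 ± 0.651 FPKM in control (log2 fold change -0.30, adjusted p = 0.24).

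The knockout effect on log2(FPKM + 1) was compared between days over the 36 libraries with limma's F test of line by day. Of 26 members tested 16 passed, where 17.1% of all 13022 genes passed. This scale presses values below 1 FPKM towards 0, so a gene with a constant ratio between the lines and a level that climbs with time can pass. Chromosome shifts also changed between days, as on chromosome 1 from -0.05 at day 0 to -0.30 at day 10. Those of chromosomes 6 and 8 were large at days 0 and 3 only. The F test was not run with chromosome medians taken off. With a pseudocount of 0.1 in place of 1, 7 of the 16 passed: Col5a2, Col6a3, Col6a2, Col9a1, Col2a1, Col9a2 and Col23a1. Their adjusted p values then ran from 6.65e-06 for Col5a2 and 8.05e-05 for Col6a3 to 0.029 for Col23a1. The share of all genes that passed with 0.1 is not given here, so that count of members has no background beside it. The daily log2 fold changes with a pseudocount of 1 ran from -3.11 to -0.09 for Col6a3, from -2.77 to 0.09 for Col5a2 and from 0.01 to 1.04 for Col2a1. Col3a1, Col1a2 and Col1a1 passed with a pseudocount of 1 but not with 0.1 (adjusted p = 0.20, 0.35 and 0.39). At day 5, under the minimum of the daily test, Col3a1 averaged 0.0445 FPKM in knockout and 0.281 FPKM in control. Col18a1 (adjusted p = 0.30), Col11a1 (0.31), Col4a1 (0.16) and Col4a2 (0.063) did not pass with a pseudocount of 1.

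Genes that make, bind or remodel collagen were read from 5 lists. Together they had 24.4% of 41 tested lower and 9.76% higher at day 0, where all genes gave 8.03% lower and 6.49% higher. The lists had 18.6% of 43 lower and 6.98% higher at day 5 (all genes 3.32% and 7.07%), and 9.62% of 52 lower with 0 higher at day 8 (all genes 2.00% and 1.28%). They had 33.9% of 56 lower and 3.57% higher at day 10 (all genes 5.12% and 15.0%), and 21.8% of 55 lower and 1.82% higher at day 12 (all genes 3.48% and 3.22%). Among binding partners in the matrix, 3 of 10 tested were lower at day 5, 3 of 13 at day 8, 8 of 14 at day 10 and 9 of 15 at day 12, with 0 higher at these days. At day 0, 3 of 10 were higher, Lamb1, Nid1 and Lama1, and 3 were lower, Sparc, Hspg2 and Lamb2. The small proteoglycans decorin and lumican, which bind fibrils, had the lowest fold changes of this list at day 12. Dcn was at 3.58, 5.08 and 1.91 FPKM in the knockout libraries and 27.2, 21.9 and 23.1 FPKM in the control libraries at day 12 (a log2 fold change of -2.53, SE 0.24, adjusted p = 0.00066). Lum was at 8.73, 12.0 and 7.79 FPKM in the knockout libraries and 50.6, 31.3 and 33.4 FPKM in the control libraries (log2 fold change -1.90, SE 0.20, adjusted p = 0.0013). Neither gene's groups overlapped. Fibronectin, Fn1, a chromosome 1 gene, was lower at day 5, at 31.8, 33.7 and 26.7 FPKM in the knockout libraries and 156, 131 and 143 FPKM in the control libraries (log2 fold change -2.19, SE 0.13, adjusted p = 2.4e-06). The laminin chains Lama1, Lama4 and Lamc1 and the laminin linker Nid1, partners of type IV collagen in basement membranes, were lower at day 10 with log2 fold changes from -0.79 to -0.52, where Nid1 (0.46) and Lama1 (0.34) had been higher at day 0. Lamc1 (-0.52) is also a chromosome 1 gene, and the median of that chromosome stood at -0.30 against the other chromosomes at day 10.

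Enzymes and chaperones of collagen folding hydroxylate the chains and keep them from early assembly. At day 10, 4 of 16 tested were lower, namely the prolyl 4-hydroxylase subunits P4ha3 (log2 fold change -0.84) and P4ha2 (-0.57) and the prolyl 3-hydroxylases Lepre1 (-0.59, with overlapping groups) and Leprel1 (-0.54). At day 12, 0 of 16 were lower and the lysyl hydroxylase Plod1 was higher, at 22.4, 19.3 and 20.8 FPKM in the knockout libraries and 12.8, 13.4 and 12.8 FPKM in the control libraries (log2 fold change 0.64, SE 0.11, adjusted p = 0.0099). Plod1 had also been higher at day 0 (log2 fold change 0.44, adjusted p = 0.015). P4ha2, Serpinh1, Fkbp14 and Glt25d1 of this list were lower at day 0, the last 2 of them on the shifted chromosomes 6 and 8. Leprel1 was lower at days 5, 8 and 10, most at day 5 (a log2 fold change of -1.63, adjusted p = 2.4e-05). Of the secretion, cleavage and cross-linking genes, 4 of 12 were lower and 1 higher at day 10, and 2 of 11 lower and 0 higher at day 12. The propeptidase Adamts2 (-1.28), the propeptidase enhancer Pcolce (-0.99), the transport coat protein Sec24d (-0.80) and the cross-linking enzyme Loxl1 (-0.55) were lower at day 10, and Pcolce2 was higher (0.81). At day 12 the cross-linking enzyme Lox was at 3.08, 4.17 and 2.23 FPKM in the knockout libraries and 10.8, 11.4 and 9.54 FPKM in the control libraries (log2 fold change -1.50, SE 0.18, adjusted p = 0.0022).

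Of the collagen receptors, 3 of 6 tested were lower at day 10 and 1 of 5 at day 12, with 0 higher. The discoidin receptor Ddr2 was the one lower at both days, with log2 fold changes of -0.90 at day 10 and -1.37 at day 12, and the integrin chain Itga1 (-0.79) and the endocytic receptor Mrc2 (-0.50) were lower at day 10. Ddr2 is a chromosome 1 gene, and that chromosome's median stood at -0.30 against the others at day 10 and -0.28 at day 12. Of the degradation genes, 8 were tested at both days. The protease inhibitor Timp1 was higher at day 10 (a log2 fold change of 0.96, adjusted p = 0.0048), and 0 were lower at day 10 and 0 called at day 12. Over all genes 15.0% were higher and 5.12% lower at day 10, and 3.22% higher and 3.48% lower at day 12. A single higher call among 8 tested is not above the day 10 share. At day 5, Timp2 and Mmp15 were lower, where 3.32% of all genes were lower.

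**Figure D5:**
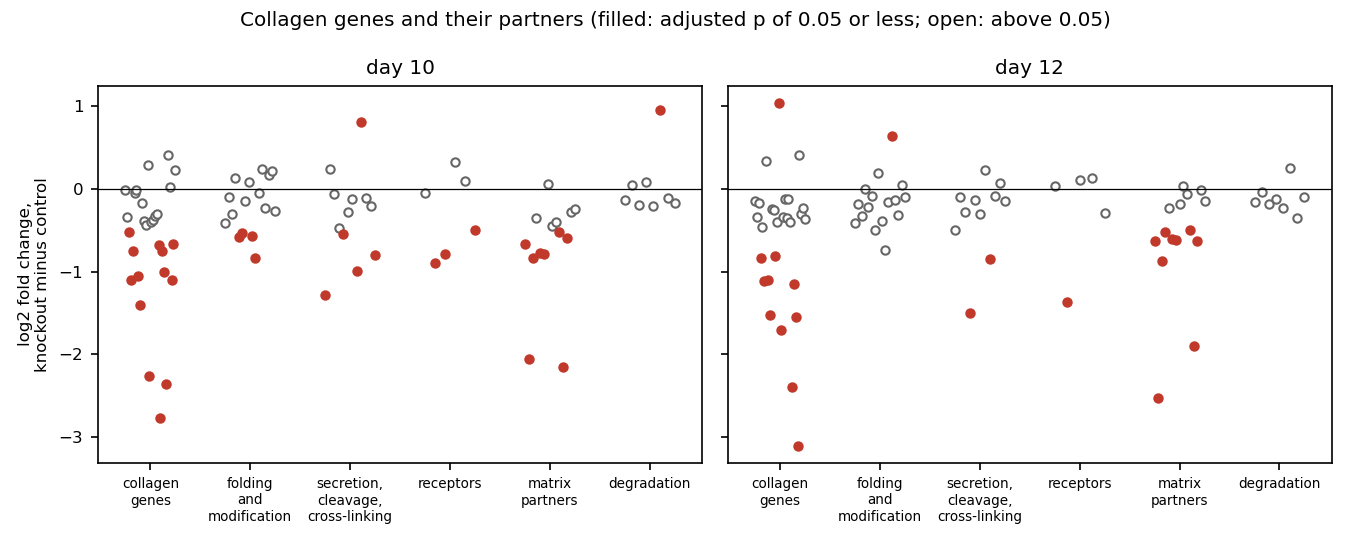
Log2 fold change, knockout minus control (vertical axis), of each tested gene of the collagen genes and of 5 lists of partner genes (horizontal axis) at days 10 and 12, with filled red points for an adjusted p of 0.05 or less and open points for the others. The red points of the matrix partners reach -2.53 (Dcn, day 12), those of the folding list stay between -0.84 and 0.64, and the collagen genes reach -3.11 (Col6a3, day 12).

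Markers of other cell types moved in the same libraries, and their part in the collagen values was not tested. Of 9 fibroblast and mesenchyme markers, 3 of 6 tested were lower at day 8, 7 of 8 at day 10 and 7 of 9 at day 12, with 0 higher. Their sums were 96.1 to 151 FPKM in the knockout libraries and 191 to 285 FPKM in the control libraries at day 10, and 210 to 264 FPKM in knockout and 346 to 418 FPKM in control at day 12; Dcn and Lum are in this list too, and no gene of any marker list was at 0 in all 6 libraries at days 5 to 12. Cardiomyocyte markers were lower in 6 of 6 tested at days 8 and 10 and 6 of 7 at day 12, with sums of 245 to 290 FPKM in knockout and 679 to 772 FPKM in control at day 12. Endothelial markers were lower in 4 of 7 at day 8, 5 of 7 at day 10 and 2 of 7 at day 12, with sums of 37.6 to 41.4 FPKM in knockout and 55.5 to 63.8 FPKM in control at day 12. Visceral endoderm markers were lower in 4 of 7 at day 10 and 1 of 7 at day 12, with sums of 276 to 310 FPKM in knockout and 523 to 880 FPKM in control at day 10. Markers of undifferentiated cells were higher in 2 of 5 at days 5 and 8 and 5 of 5 at day 10, with 119 to 140 FPKM in knockout and 40.4 to 66.3 FPKM in control at day 10. Smooth muscle markers gave 3 of 3 higher at day 5, with 63.9 to 87.7 FPKM in knockout and 26.6 to 32.7 FPKM in control, 1 of 3 higher at day 8 (Tagln, log2 fold change 0.82, adjusted p = 0.045), 1 of 3 lower at day 10 (Acta2, log2 fold change -0.59, adjusted p = 0.029) and 0 of 3 called at day 12. Neural markers gave 3 of 3 lower at day 0, with 12.1 to 12.7 FPKM in knockout and 19.4 to 20.7 FPKM in control, then Nes higher at days 5 and 8 and 0 of 3 called at days 10 and 12. At day 5, 1 of 3 fibroblast, 1 of 2 endothelial and 1 of 3 cardiomyocyte markers were lower, and 2 of 3 cardiomyocyte and 2 of 6 visceral endoderm markers were higher. The fibroblast marker lower at day 5 was Pdgfra, which is also in the primitive and parietal endoderm list.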

How the data were processed

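RNA was sequenced from 36 libraries in 12 groups of 3. The authors deposited FPKM in 6 tables, 1 per day; TopHat, Cufflinks and mouse build mm9 are named in the submitters' processing notes, and versions, annotation and normalization are not given in the sources used here. FPKM carries no counts, so absolute depth is unknown, and relative depth, estimated as the commonest ratio between values of rarely listed genes (10 to 62 genes at that ratio), spanned 0.564 to 1.84 times that of control replicate 1 of day 0. The labels name no batch.

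Each day was tested within its table on log2(FPKM + 1), for genes averaging at least 1 FPKM, with limma 3.58.1 in R 4.3.3 (trend in variance, two-sided, Benjamini-Hochberg over all genes tested). The scripts were tested on simulated data. Chromosomes and coordinates are from a GRCm38 annotation, which matched 32616 of 37561 entries by Ensembl identifier. The members and gene lists were chosen with earlier results of these data known. Named genes followed a rule: log2 fold changes for members past the threshold, library values for up to 4 per class, by fold change and without overlap, at the day of the lowest adjusted p, levels for members at 10 FPKM or more, up to 12 members of the F test by range, and up to 4 genes per partner list. Alternatives were another pseudocount (0.1), no filter or a minimum of 5 FPKM, rescaled libraries, chromosome medians taken off, a replicate block, 1 library left out, and 1 fit over 36 libraries. Col26a1 was not analysed here.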

Additional observations from a re-analysis of the deposited data

Results flagged for a closer look

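In 16 collagen genes the knockout effect on log2(FPKM + 1) differed between days, by limma's F test of line by day over 36 libraries with Benjamini-Hochberg adjustment over all genes tested, and in 12 of them the daily values lay more than 1 log2 unit apart. Values below 1 FPKM are pressed towards 0 on this scale, so a climb in level alone can widen the span. Chromosome shifts that change between days can widen it too, for Col3a1, Col5a2, Col6a3 and Col9a1 on chromosome 1 and Col1a2 on chromosome 6. The F test was not run with chromosome medians taken off. With a pseudocount of 0.1, 7 of the 12 passed and 5 did not: Col3a1, Col1a2, Col1a1, Col6a1 and Col14a1 (adjusted p = 0.20, 0.35, 0.39, 0.14 and 0.11). The share of all genes that passed with 0.1 is not given here. The log2 fold changes, knockout minus control, of the 6 days ran between -3.11 and -0.09 for Col6a3 (adjusted p = 7.52e-15), between -2.77 and 0.09 for Col5a2 (adjusted p = 6.02e-11) and between -2.26 and -0.29 for Col3a1 (adjusted p = 1.7e-09). For the other type I and VI chains the adjusted p was 5.48e-06 for Col1a2 (-1.52 to -0.25), 0.000366 for Col1a1 (-1.10 to -0.02), 1.53e-07 for Col6a2 (-1.55 to 0.12) and 0.000176 for Col6a1 (-1.15 to 0.11).

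Among the fibril-associated and transmembrane genes it was 3.15e-05 for Col9a1 (-1.31 to 0.01), 0.00733 for Col9a2 (-0.66 to 0.61), 9.46e-05 for Col14a1 (-1.11 to 0.05) and 0.00027 for Col23a1 (-1.31 to -0.05). Col2a1 had daily log2 fold changes from 0.01 to 1.04 (adjusted p = 0.00041), so its knockout mean was the higher one at each day. The other low ends were at days 10 or 12 except for Col23a1, at day 5, and Col9a1, at day 8. This test holds all 6 days of a gene, so the fold changes include days at which it lay under 1 FPKM and was not tested on its own.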

How the results depend on the processing

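Of the 32 calls of a collagen gene at a day, 31 remained with a pseudocount of 0.1, 21 with no filter, 19 of the 19 still tested with a minimum of 5 FPKM, 32 with rescaled libraries, 31 with chromosome medians taken off, 31 of the 31 tested in 1 fit over 36 libraries, and 26 to 29 with 1 library left out; no direction reversed in any of these. The replicate numbers did not pair the libraries, since 5 of 18 same-numbered pairs correlated above 0.1 and 4 pairs correlated best with their own number; with a replicate block 30 of 32 remained, Col13a1 at days 8 and 10 being lost (adjusted p = 0.053 and 0.0501). Without a filter, the 11 calls lost were those of Col13a1 at days 5, 8 and 10, Col5a2 and Col9a1 at day 8, Col15a1, Col5a1 and Col6a1 at day 10, and Col14a1, Col16a1 and Col25a1 at day 12; this fit adjusts over more genes.

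Collagen counts moved as follows. At day 3, 1 was higher in the fit over 36 libraries, and 1 was lower in that fit and with rescaling. A minimum of 5 FPKM left 2 lower at day 5, 1 at day 8 and 8 at day 10. At day 8, no filter left 1 lower, rescaling gave 10 and the fit over 36 libraries 9. Over all genes, rescaling raised the lower calls of that day from 254 to 480. With 1 library left out the lower collagen counts were 2 each time at day 8 (4 with all libraries), 11 to 13 at day 10 and 7 to 10 at day 12. With a pseudocount of 0.1, 7 members passed the F test of line by day, against 16, and the share of all genes is not given for 0.1.

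For the 5 partner lists together, no filter gave 5, 2, 2, 9 and 6 calls at days 0, 5, 8, 10 and 12, against 14, 11, 5, 21 and 13. A minimum of 5 FPKM gave 7 at day 5 and 2 at day 8, the replicate block 3 at day 0 and 8 at day 12, the fit over 36 libraries 6 at day 0, 5 at day 3 and 11 at day 8, and rescaling 1 at day 3, 9 at day 8 and 34 at day 10. With 1 library left out they had 4 to 7 at day 0, 0 to 2 at day 3, 3 to 7 at day 5, 2 to 4 at day 8, 15 to 24 at day 10 and 7 to 11 at day 12. These list counts pool both directions. Over all 12938 genes of day 10, rescaling gave 1232 higher and 1478 lower calls, against 1946 and 663 on deposited values. With all 36 libraries rescaled to each other, all collagens summed to 63.1 FPKM in knockout and 65.8 FPKM in control at day 0 and 563 FPKM in control at day 8. Fibrillar genes then summed to 86.9 FPKM at day 8 and 492 FPKM at day 12 in control, Col4 to 10.5 FPKM at day 0 and 192 FPKM at day 8 in control, and the other types to 47.2 FPKM in knockout at day 0 and 278 FPKM in control at day 8. The cause of these shifts was not tested. With 3 libraries a group an exact permutation test cannot go below 0.1, so the calls rest on limma's pooled spread, and FPKM without counts gives no interval for the 12 members below 1 FPKM.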
